A study of Homo sapiens with 12 samples.

Results

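Baseline gene expression was compared between Rh30 and RD, a pair of human rhabdomyosarcoma (RMS) cell lines, using only the libraries that carried a control shRNA. The comparison rests on 6 of the 12 RNA-seq libraries of the study, 3 of Rh30 and 3 of RD, chosen by their labels, and on 18357 of the 65975 genes in the expression table, those with a mean of at least 1 FPKM over the 6 libraries. The wider study asked what the histone demethylase KDM3A does in RMS; the question here is how its FP-RMS line and its FN-RMS line differ before KDM3A is depleted. Each sample was polyadenylated RNA of cells stably transduced with a lentivirus carrying Scrambled shRNA (Scramble) and selected in puromycin, so all 6 libraries share the virus and the drug. RD stands for fusion-negative RMS (FN-RMS) and carries an activating Ras mutation. Rh30 stands for fusion-positive RMS (FP-RMS). Each subtype is therefore 1 line, and the values compare Rh30 with RD, not the subtypes. RD was grown in DMEM and Rh30 in RPMI, so the medium and the line cannot be told apart. The labels do not say whether replicates were separate cultures, and p-values then measure only the spread between these libraries.

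RMS is a soft tissue cancer of cells that have entered the skeletal muscle lineage without completing it. FP-RMS usually carries a chromosome translocation that joins the DNA-binding part of PAX3 or PAX7 to the activating part of FOXO1. The fused factor binds many enhancers together with the myogenic factors and turns on genes such as FGFR4, MYCN and ALK, whereas FN-RMS more often carries mutations of receptor tyrosine kinase and Ras signalling. In normal muscle, PAX3 and PAX7 mark precursor cells, MYOD1 and MYOG drive differentiation, and contractile genes follow.

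Levels are FPKM, fragments per kilobase of transcript scaled to the mapped total of a library, which the authors computed. Differences are Rh30 minus RD on the log2(FPKM + 1) scale, tested with limma across all genes. A gene is called at a Benjamini-Hochberg adjusted p under 0.05, and a 2-fold call also needs a difference of at least 1 on that scale. Where mean levels are set against each other in brackets, RD comes before Rh30. The scale understates changes of low genes, so folds (ratios of mean FPKM) are given only where both lines had at least 1 FPKM. For a gene on its own, 3 values in each line allow no exact permutation p under 0.1. Correlations of log2 values over the genes tested were 0.987 to 0.988 within each line and 0.828 to 0.832 between the lines. At this distance most genes differed: 6418 (35.0%) were called higher and 7265 (39.6%) lower in Rh30, and 2297 (12.5%) and 2841 (15.5%) passed the 2-fold rule. The median difference of all genes tested was -0.04. These shares are the background against which the counts below are read, and they are high. Protein-coding genes alone leaned further to lower. Of 12744 tested, 4355 were called higher and 5923 lower, 1421 and 2348 by at least 2-fold, with a median of -0.13. Lists of protein-coding genes are better read against these counts. The gene lists were chosen with earlier results of these data known, so their counts are descriptive. Of the 2-fold calls that could be tested in the KDM3A-depleted libraries of the same lines, 96.9% of those higher and 98.6% of those lower were also called in the same direction there.

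**Figure D1:**
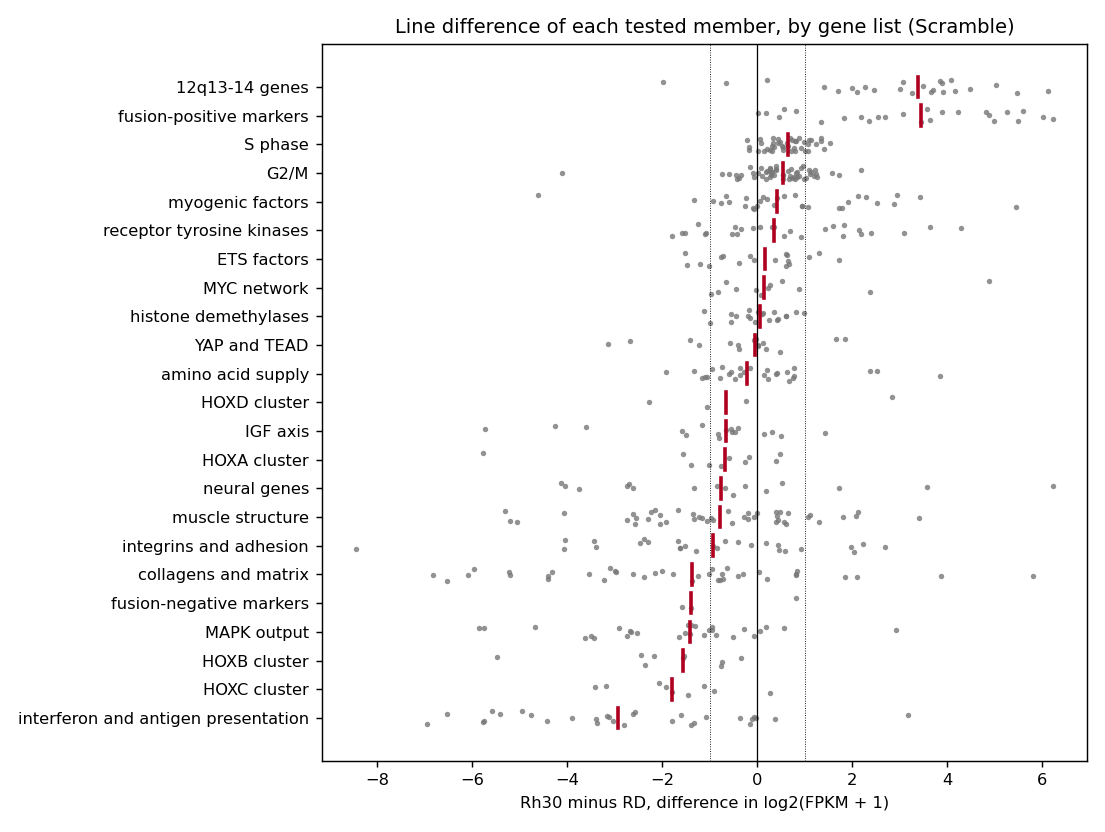
Rh30 minus RD difference on the log2(FPKM + 1) scale for every tested member of 23 gene lists, each grey point a gene, the red bar the list median, and the dotted lines marking a 2-fold difference. Members of the 12q13-14 and fusion-positive lists lie mostly to the right (medians 3.38 and 3.44), and those of the interferon, HOXC, HOXB and MAPK output lists mostly to the left (medians -2.93, -1.80, -1.56 and -1.42).

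The genes joined in the FP-RMS translocation were both higher in Rh30. PAX3 (ENSG00000135903) was at 16.3, 17.4 and 14.6 FPKM in RD and at 54.2, 62.8 and 49.5 FPKM in Rh30, a 3.45-fold difference (log2 difference 1.72, SE 0.10, limma adjusted p = 4.99e-06). FOXO1 (ENSG00000150907) was at 4.68, 5.30 and 6.52 FPKM in RD and at 57.1, 57.5 and 34.3 FPKM in Rh30, 9.02-fold higher (2.93, SE 0.21, adjusted p = 1.46e-05). The libraries of the lines did not overlap for either gene, though the Rh30 library of replicate 3 lay well under the others for FOXO1. Reads of fused and normal transcripts fall on the same exons, so these FPKM values do not separate them. PAX7, the close relative of PAX3, had the opposite pattern: 25.9, 25.5 and 24.2 FPKM in RD and 0.0414, 0.0734 and 0.0889 FPKM in Rh30, close to no expression.

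Of 25 genes listed from general knowledge as markers or targets of the fusion, all 25 were tested, 24 were called higher, 20 of them by at least 2-fold, and none lower. The list median was 3.44, against -0.04 for all genes. Earlier results of these data were known when this list was made, so the gap describes its members and is no independent test. The transcription factors TFAP2B, PRDM12 and OLIG2 were near absent from RD. TFAP2B, an AP-2 factor, was at 0.0150, 0.00654 and 0.00758 FPKM in RD and at 13.9 ± 0.781 FPKM in Rh30 (mean and SD, n = 3). PRDM12, a neural zinc finger factor, was at 0.385, 0.320 and 0.334 FPKM in RD and at 88.3, 90.0 and 79.4 FPKM in Rh30. OLIG2, known from oligodendrocytes, was under 0.02 FPKM in every RD library and at 11.5, 11.0 and 10.6 FPKM in Rh30. Each of these genes went from under 1 FPKM to over 10 FPKM, with no overlap. The same held for a structural gene of migrating neurons, DCX, at 0.313, 0.263 and 0.325 FPKM in RD and at 95.6, 94.2 and 97.0 FPKM in Rh30.

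Cell surface and signalling members of that list were also higher. FGFR4, a fibroblast growth factor receptor of muscle precursors, was already high in RD (110, 112 and 122 FPKM) and was 4.54-fold higher in Rh30 (550, 540 and 475 FPKM; adjusted p = 2.55e-07). ALK, another receptor tyrosine kinase, went from 1.77, 2.07 and 1.62 FPKM to 33.2, 33.8 and 34.7 FPKM, 18.6-fold. CDH3, encoding P-cadherin, went from 0.149 ± 0.131 FPKM (SD, n = 3) to 5.98, 6.75 and 6.41 FPKM. All 3 genes were higher in every Rh30 library. Further members, chosen after their values were seen, show the range of the list: CXCR4, the chemokine receptor, rose from a mean of 2.75 to 166 FPKM, and SKP2, a ubiquitin ligase subunit, from 111 to 648 FPKM. DAPK1 and RASSF4 differed by only 0.18 and 0.47, and the demethylase KDM4B, at 15.1 and 15.3 FPKM, was the member that was not called (0.02, adjusted p = 0.869).

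Of 3 genes listed as FN-RMS markers, HMGA2 and EGFR were lower in Rh30 and FBN2 was not. HMGA2, a chromatin protein of embryonic tissue, was at 172, 170 and 160 FPKM in RD and at 63.5, 60.8 and 63.3 FPKM in Rh30. EGFR was at 22.1, 21.4 and 19.7 FPKM in RD and at 7.16, 5.93 and 5.97 FPKM in Rh30. FBN2, which encodes a microfibril protein, was higher in Rh30, at 17.1 against 30.7 FPKM (0.81, adjusted p = 1.29e-05), the reverse of the label under which it was listed.

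MYOD1 and MYOG were expressed in both lines and were higher in Rh30. Of 37 myogenic regulators listed, 31 were tested, 17 were called higher (11 by at least 2-fold) and 7 lower (2 by at least 2-fold), with a median difference of 0.41. MYOD1 (ENSG00000129152), the factor that commits cells to the muscle lineage, was at 132, 136 and 133 FPKM in RD and at 825, 794 and 691 FPKM in Rh30, 5.75-fold higher (2.51, SE 0.07, adjusted p = 1.18e-07). MYOG (ENSG00000122180), which drives terminal differentiation, was at 173, 188 and 192 FPKM in RD and at 700, 725 and 647 FPKM in Rh30, 3.75-fold higher (1.90, SE 0.06, adjusted p = 2.09e-07). Both are the stains by which RMS is diagnosed, and for both every Rh30 library was far over every RD library. The relatives MYF5 and MYF6 stayed under 0.1 FPKM on average in either line.

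Among partners and upstream factors the lines used different members. EYA2, a transcriptional co-activator, was at 0.345, 0.482 and 0.232 FPKM in RD and at 57.5, 61.1 and 55.6 FPKM in Rh30. MEOX1, a homeobox gene of the somite, was at 0.687, 0.663 and 0.840 FPKM in RD and at 17.3, 18.2 and 17.6 FPKM in Rh30. The homeobox gene PITX3 (22.3 against 114 FPKM) was higher too. MEF2C, a cofactor of MYOD1, was higher by 0.95, MEF2D lower by 0.94 (difference -0.94), and MEF2B, at a mean of 1.92 FPKM in RD and 0.123 FPKM in Rh30, was lower by more than 2-fold. Myostatin (MSTN), the secreted brake on muscle growth, was level at 233 and 242 FPKM and was not called.

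**Figure D2:**
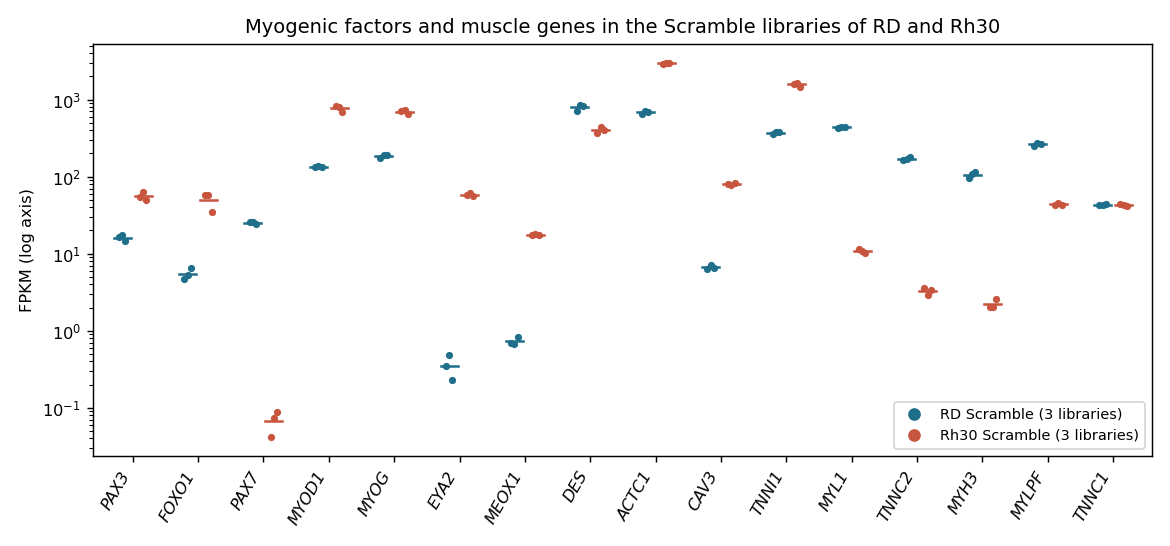
FPKM (log axis) of 16 myogenic and muscle genes in the 3 RD and 3 Rh30 Scramble libraries, points being libraries and bars the means. MYOD1 and MYOG sit at 132 to 192 FPKM in RD and 647 to 825 FPKM in Rh30, whereas MYL1, TNNC2, MYH3 and MYLPF run the other way.

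The contractile genes did not follow MYOD1 and MYOG. Of 49 muscle structure genes, 44 were tested, 15 were called higher (7 by at least 2-fold) and 26 lower (20 by at least 2-fold), and the median difference was -0.78. The members with the largest drops were TNNC2 and MYL1. MYL1, the fast alkali light chain, was at 429, 434 and 441 FPKM in RD and at 11.6, 10.9 and 10.1 FPKM in Rh30, 40.1-fold lower (adjusted p = 5.05e-09). TNNC2, the fast troponin C, was at 165, 170 and 177 FPKM in RD and at 3.61, 2.92 and 3.36 FPKM in Rh30, 51.8-fold lower. Other members called lower, chosen after their values were seen, were the embryonic myosin MYH3 (106 against 2.22 FPKM), the slow myosin MYH7 (10.0 against 0.641 FPKM), the cardiac calsequestrin CASQ2 (10.5 against 0.991 FPKM), the fast troponin T TNNT3 (23.5 against 3.12 FPKM) and the fast regulatory light chain MYLPF (264 against 43.9 FPKM). The fast troponin I gene TNNI2 was called higher, at 12.8 and 33.1 FPKM.

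The members with the largest rises were CAV3 and ACTC1. ACTC1, the cardiac actin that is also used in fetal skeletal muscle, was at 650, 705 and 686 FPKM in RD and at 2894, 3007 and 2957 FPKM in Rh30, 4.34-fold higher (adjusted p = 2.46e-08). CAV3, the muscle caveolin, was at 6.32, 7.12 and 6.44 FPKM in RD and at 79.8, 78.4 and 81.7 FPKM in Rh30, 12.1-fold higher. The slow troponins TNNI1 (372 against 1572 FPKM) and TNNT1 (723 against 1517 FPKM) were also higher, but the slow and cardiac troponin C gene TNNC1 was level at 43.1 and 42.6 FPKM. DES, the muscle intermediate filament used beside MYOD1 and MYOG in diagnosis, was at 712, 847 and 830 FPKM in RD and at 369, 435 and 408 FPKM in Rh30, 1.97-fold lower (-0.98, adjusted p = 3.64e-05). The acetylcholine receptor subunit gene CHRNA1 was lower as well (1074 against 456 FPKM), whereas the delta subunit CHRND was not called (105 against 99.4 FPKM).

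A block of neighbouring genes that were higher in Rh30 lay on the long arm of chromosome 12. Of 24 genes listed there, all tested, 21 were called higher, each by at least 2-fold, 2 lower and 1 was not called, with a median difference of 3.38. CDK4 (ENSG00000135446, chr12:57747727-57756013 in GRCh38), the kinase that starts the passage from G1 into S phase, was at 626, 655 and 684 FPKM in RD and at 14842, 15023 and 14118 FPKM in Rh30, 22.4-fold higher (4.48, SE 0.04, adjusted p = 4.68e-09). GLI1, the transcription factor at the end of the Hedgehog pathway, was at 2.55, 2.08 and 3.75 FPKM in RD and at 162, 173 and 153 FPKM in Rh30. AVIL, an actin-binding protein gene, was at 1.97, 1.31 and 2.39 FPKM in RD and at 196, 208 and 191 FPKM in Rh30, a 105-fold difference. SHMT2, the mitochondrial serine hydroxymethyltransferase, rose from 142, 141 and 134 FPKM to 2077, 2034 and 1893 FPKM. The genes differ in function and have in common that they lie close together.

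From PIP4K2C to XRCC6BP1 (chr12:57591174-57959148), 18 consecutive tested protein-coding genes were each at least 2-fold higher in Rh30, with a median difference of 3.68. KIF5A, a neuronal motor protein gene and the tested gene just before that run, was lower in Rh30 (7.29, 6.92 and 7.31 against 1.18, 0.909 and 1.06 FPKM). LRIG3, the next tested gene after it, differed by only 0.60. Higher genes also lay before KIF5A, among them SHMT2, GLI1 and STAC3 (153 against 3014 FPKM), a muscle excitation protein. Within 5 Mb of CDK4 on either side, 37 of 124 tested protein-coding genes were higher by at least 2-fold, 19 of them by a log2 difference of at least 3, and 18 were lower by at least 2-fold. DNA copy number was not measured here. DDIT3, a stress factor inside the block, was higher by only 1.41, and DCTN2 was lower by 0.66 (difference -0.66), so the block was not raised evenly. Several of these genes overlap or adjoin on opposite strands, and whether the counting used strand is not given in the sources used here.

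**Figure D3:**
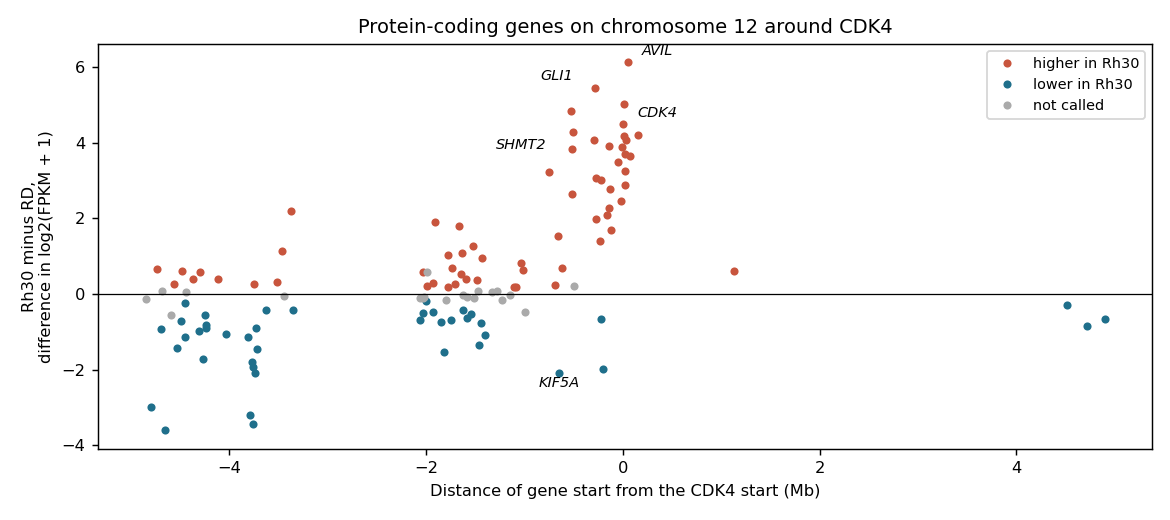
Rh30 minus RD difference on the log2(FPKM + 1) scale for the 124 tested protein-coding genes within 5 Mb of CDK4, against distance of the gene start from that of CDK4 in Mb; colours mark genes called higher, called lower or not called. The tall group close to 0 Mb holds AVIL (6.12), GLI1 (5.46) and CDK4 (4.48), with KIF5A, which is lower, among them.

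Other stretches of the genome also stood to one side. Over 435 windows of 5 Mb with at least 10 tested protein-coding genes, the median difference of a window was -0.10 at the middle window, and the 5th and 95th percentiles were -0.88 and 0.72. The highest window was on chromosome 17 from 15000001 to 20000000, where the median was 1.71 and 42 of 50 genes had a positive difference. Counts for windows are by sign alone, whether or not a gene was called. It holds TOP3A, a topoisomerase gene (25.8, 23.5 and 23.6 FPKM in RD and 259, 258 and 257 FPKM in Rh30, 10.6-fold), MED9 of the Mediator complex (6.04 against 71.9 FPKM) and MFAP4, an elastic fibre gene (4.15 against 85.5 FPKM). The cytosolic enzyme SHMT1, counted below with amino acid genes, lies in the same window. Next came chromosome 3 from 100000001 to 105000000 (median 1.33, 13 of 15 positive), with TOMM70A (3.66-fold), TBC1D23 (3.60-fold) and ABI3BP (0.0440 against 8.46 FPKM). Chromosome 13 from 25000001 to 30000000 followed (1.29, 18 of 19 positive), with UBL3 (5.58-fold), SLC46A3 (12.1-fold) and RPL21 (5.28-fold). All of these medians were over 1 on the TPM scale and in the KDM3A-depleted libraries too.

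The lowest windows were on chromosome 2 from 155000001 to 160000000 (median -1.62, 3 of 13 genes with a positive difference), chromosome 10 from 40000001 to 45000000 (-1.35, 1 of 11) and chromosome 8 from 10000001 to 15000000 (-1.29, 2 of 14). GPD2, the mitochondrial glycerol phosphate dehydrogenase on chromosome 2, was at 71.1, 62.4 and 60.8 FPKM in RD and at 5.89, 5.68 and 5.91 FPKM in Rh30. In the same window CD302 was 15.8-fold lower and PLA2R1 fell from a mean of 8.95 to 0.00196 FPKM. The chromosome 10 window holds the chemokine CXCL12 (9.34 against 0.00966 FPKM), ZNF239 (9.21 against 0.0416 FPKM) and ZNF487 (4.11 against 0.584 FPKM). The chromosome 8 window holds the protease gene CTSB (636 against 64.6 FPKM), DLC1, a GTPase-activating protein gene (22.7 against 0.906 FPKM), and XKR6, which was listed at 0 in all 3 Rh30 libraries and at 6.23 FPKM on average in RD. Over whole chromosomes the median ran from -0.69 on chromosome 8 (440 genes) to 0.55 on chromosome 13 (213 genes).

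The MYC family was divided between the lines. MYCN, common in neural and embryonic tumours, was at 2.07, 2.23 and 2.09 FPKM in RD and at 91.6, 92.1 and 88.3 FPKM in Rh30, 42.6-fold higher (adjusted p = 6e-09). MYC itself was at 98.8, 99.5 and 98.3 FPKM in RD and at 55.9, 57.3 and 53.2 FPKM in Rh30, 1.78-fold lower (adjusted p = 2.23e-06). MYCL was level at 14.5 and 15.2 FPKM and was not called. MYC had the highest level of the 3 in RD, and MYCN in Rh30. Of 12 tested genes of the network, 6 were called higher and 4 lower, and besides MYCN the antagonist gene MXD3 passed the 2-fold rule (8.30 against 47.1 FPKM).

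Output genes of the MAPK pathway were mostly lower in Rh30. Of 31 genes listed as such output of the pathway, which runs from receptor kinases through Ras to ERK, 29 were tested, 24 were called lower (19 by at least 2-fold) and 2 higher, with a median difference of -1.42. CXCL8, a chemokine, was at 86.8, 76.6 and 79.4 FPKM in RD and at 0.235, 0.366 and 0.623 FPKM in Rh30. PHLDA2, an imprinted growth regulator, was at 54.8, 59.5 and 51.4 FPKM in RD and listed at 0 in 2 Rh30 libraries and at 0.127 FPKM in the other. Further members, chosen after their values were seen, were the ERK phosphatase genes DUSP4 (133 against 4.19 FPKM) and DUSP6 (430 against 67.5 FPKM), the AP-1 factor FOSL1 (135 against 10.9 FPKM) and cyclin D1 (CCND1, 335 against 134 FPKM). Not all members fell: the feedback gene SPRED1 (13.6 against 15.5 FPKM), ETV5 (45.0 against 43.0 FPKM) and EPHA4 (5.00 against 5.29 FPKM) were not called. The members called higher were the ligand TGFA, at 0.0229, 0.0101 and 0.0234 FPKM in RD and 6.01, 6.52 and 7.65 FPKM in Rh30, and EPHA2, higher by 0.55.

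Receptor tyrosine kinases differed in both directions. Of 27 tested, 15 were called higher (10 by at least 2-fold) and 10 lower (6 by at least 2-fold). FGFR2, like FGFR4 and ALK above, was among the risers, at 0.505, 0.489 and 0.595 FPKM in RD and at 28.8, 28.0 and 30.0 FPKM in Rh30. EPHA3, an ephrin receptor, was lower, at 6.28, 6.17 and 5.47 FPKM in RD and at 1.03, 0.893 and 1.11 FPKM in Rh30. FGFR1 was at 125 FPKM in RD, beside 115 FPKM for FGFR4, and at 57.8 FPKM in Rh30, beside 522 FPKM for FGFR4. MET (14.3 against 53.2 FPKM), ERBB3 (14.2 against 51.7 FPKM) and PDGFRA (0.273 against 5.74 FPKM) were higher, and ERBB2 (22.5 against 10.1 FPKM) and DDR2 (68.9 against 28.2 FPKM) lower.

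Most genes listed for the insulin-like growth factor axis were lower in Rh30. The list mixes genes that promote IGF signalling with genes that restrain it, so its count gives no direction for the axis. All 17 tested genes were called, 13 lower (6 by at least 2-fold) and 4 higher, with a median of -0.66. The ligand IGF2, an autocrine growth factor of RMS, was abundant in both lines, at 4636, 5395 and 5064 FPKM in RD and at 2181, 2411 and 2098 FPKM in Rh30. Binding proteins hold IGF outside the cell, and their differences varied, with IGFBP4 and IGFBP5 at -0.41 and -0.82, beside -1.17 for IGF2. IGFBP3 was at 52.3, 53.9 and 49.8 FPKM in RD and listed at 0 in all 3 Rh30 libraries, and IGFBP6 went from 267 to 20.9 FPKM. STC1, a secreted inhibitor of the protease that frees IGF, was at 19.9, 20.5 and 18.6 FPKM in RD and at 0.0657, 0.124 and 0.0633 FPKM in Rh30. On the receptor side INSR was 3.28-fold higher in Rh30 (2.62 against 8.57 FPKM) and IGF1R lower by 0.46 (difference -0.46, adjusted p = 0.00635).

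HOX genes, which pattern the body axis, were mostly lower in Rh30. In the HOXB cluster all 9 tested genes were called lower in Rh30 (6 by at least 2-fold, median -1.56), in HOXC 8 of 9 (7, median -1.80), in HOXA 6 of 10 (4, median -0.68) and in HOXD 2 of 4 (2, median -0.65). HOXA9 was at 83.5, 80.7 and 82.1 FPKM in RD and at 0.394, 0.898 and 0.309 FPKM in Rh30. HOXB8 was at 91.2, 89.1 and 84.9 FPKM in RD and at 1.35, 0.895 and 0.813 FPKM in Rh30, 86.8-fold lower. Genes near them differed less and not all in the same direction: HOXA7 was higher in Rh30 (29.7 against 41.6 FPKM), and HOXA10 (41.2 against 19.8 FPKM) and HOXB7 (86.8 against 51.2 FPKM) were lower. HOXC10 fell from 48.5 to 3.68 FPKM, HOXB9 from 60.7 to 10.3 FPKM and HOXA6 from 9.48 to 2.54 FPKM, and HOXC12 was at 8.16 FPKM in RD and listed at 0 in all 3 Rh30 libraries.

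The HOXD cluster ran both ways. HOXD4, toward the anterior end, was at 3.68, 3.53 and 4.80 FPKM in RD and at most 0.0690 FPKM in Rh30, and HOXD8 was 2.25-fold lower (14.3 against 6.36 FPKM). HOXD13, which patterns the distal limb, was at 0.614, 0.375 and 0.248 FPKM in RD and at 8.98, 8.22 and 9.68 FPKM in Rh30, and it was the HOX gene that passed the 2-fold rule upward. Among the HOX genes tested, the others called higher in Rh30 were HOXA2, HOXA7 and HOXC9, by 0.39, 0.47 and 0.26.

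**Figure D4:**
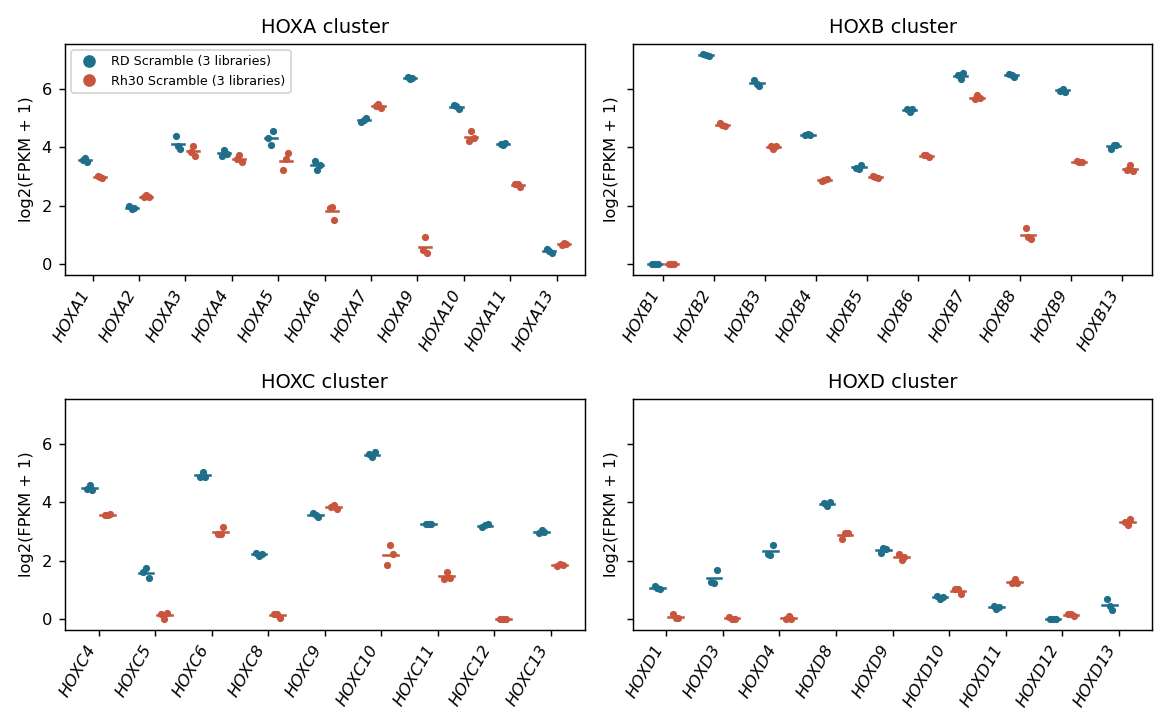
Levels, as log2(FPKM + 1), of the genes of the 4 HOX clusters in the 3 RD and 3 Rh30 Scramble libraries, points being libraries and bars means, in the order of their numbers. RD points lie over Rh30 points for most genes, with the widest gaps at HOXA9, HOXB8 and HOXC10, while HOXD13 is reversed (0.412 against 8.96 FPKM).

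Genes of the extracellular matrix were mostly lower in Rh30. Of 42 listed collagens and matrix genes, 39 were tested, 30 were called lower (22 by at least 2-fold) and 8 higher (4 by at least 2-fold), with a median of -1.37. COL3A1, a fibrillar collagen, was at 2829, 2939 and 2899 FPKM in RD and at 25.8, 23.2 and 23.8 FPKM in Rh30, 119-fold lower (adjusted p = 2.25e-09). COL6A2, a chain of the collagen that surrounds muscle fibres, was at 158, 164 and 173 FPKM in RD and at 1.05, 0.668 and 0.683 FPKM in Rh30, and its partner chains COL6A1 (231 against 10.6 FPKM) and COL6A3 (38.6 against 0.0520 FPKM) were lower with it. Fibronectin (FN1) went from 1539 to 196 FPKM and the crosslinking enzyme gene LOX from 353 to 8.55 FPKM. Not all matrix genes were lost: ELN, encoding elastin, was at 0.145, 0.0291 and 0.0341 FPKM in RD and at 57.3, 63.7 and 55.4 FPKM in Rh30. MGP, an inhibitor of calcification, was listed at 0 in all 3 RD libraries and was at 13.6 ± 1.09 FPKM (SD, n = 3) in Rh30. COL12A1, which has a missing value in these libraries, was left out of the fit.

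Cell adhesion genes were called in both directions. Of 27 tested integrin and adhesion genes, 17 were called lower (13 by at least 2-fold) and 9 higher (4 by at least 2-fold), with a median of -0.94. CD44, the hyaluronan receptor, was at 364, 368 and 361 FPKM in RD and at 0.0201, 0.121 and 0.0101 FPKM in Rh30, one of the largest differences measured (-8.44, adjusted p = 2.25e-09). ITGA9 was at 21.0, 18.0 and 15.3 FPKM in RD and at 0.108, 0.107 and 0.182 FPKM in Rh30, and its close relative ITGA4, which pairs with the same beta subunit, went from 202 to 17.7 FPKM. That subunit, ITGB1, was not called, at 299 and 271 FPKM. Cadherins differed in both directions: CDH2 (N-cadherin) went from 122 to 10.7 FPKM, while CDH15 (M-cadherin of muscle) went from 72.4 to 285 FPKM. ITGB4, the hemidesmosome subunit, was 5.77-fold higher in Rh30 (3.16 against 18.2 FPKM).

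Interferon-stimulated and antigen presentation genes were mostly lower in Rh30. Of 31 listed, 30 were tested, 25 were called lower (23 by at least 2-fold) and 2 higher, and the median difference was -2.93. Interferon signalling activates transcription factors, STAT2 among them, that bind the interferon-stimulated response element (ISRE) in the promoters of their targets. The core of that element, searched as GAAA, any 2 bases and GAAA again on either strand, was looked for in the RefSeq promoters (GRCh38.p14, 250 bases before to 50 after the start) of 23 list members that the table holds. It was found in 16 of these (69.6%), against 2.68% of the 10284 promoters of tested protein-coding genes and 3.65% of all 27305 promoters. The list was made of interferon-stimulated and related genes, so that share describes the list and not the difference between the lines. Among all genes with a promoter, the core was in 4.04% of those lower by at least 2-fold (71 of 1759). For those higher by at least 2-fold it was in 2.39% (27 of 1132), beside 2.68% of all tested. The lower genes include members of this same list, IFIT1, IFIT3 and ISG15 among them, so their share is not independent of it. A match describes letters and is no measured site. IFIT1, IFIT3 and ISG15, which are among the most changed members, are shown with their matches in capitals, each on the plus strand, at chr10:89392373-89392672, chr10:89327747-89328046 and chr1:1013247-1013546.
IFIT1: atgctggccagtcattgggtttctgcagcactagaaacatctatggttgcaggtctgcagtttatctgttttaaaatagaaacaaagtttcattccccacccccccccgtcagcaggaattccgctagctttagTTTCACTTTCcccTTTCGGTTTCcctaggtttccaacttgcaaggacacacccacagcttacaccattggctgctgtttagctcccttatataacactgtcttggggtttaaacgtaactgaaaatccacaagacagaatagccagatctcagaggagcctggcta
IFIT3: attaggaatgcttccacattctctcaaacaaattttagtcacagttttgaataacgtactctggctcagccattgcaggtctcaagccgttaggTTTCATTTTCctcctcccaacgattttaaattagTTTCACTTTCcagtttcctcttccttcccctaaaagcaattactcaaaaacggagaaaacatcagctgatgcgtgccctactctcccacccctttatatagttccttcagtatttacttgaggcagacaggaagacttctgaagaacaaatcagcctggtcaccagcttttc
ISG15: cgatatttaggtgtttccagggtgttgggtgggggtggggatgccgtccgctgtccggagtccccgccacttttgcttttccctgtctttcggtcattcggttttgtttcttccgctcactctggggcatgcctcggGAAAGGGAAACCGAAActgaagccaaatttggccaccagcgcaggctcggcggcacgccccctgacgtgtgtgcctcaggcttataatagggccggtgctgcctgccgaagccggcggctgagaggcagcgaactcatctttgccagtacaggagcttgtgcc

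The first match began 116 bases before the start in IFIT1, 156 bases before it in IFIT3 and 113 bases before it in ISG15. IFIT1, whose protein binds foreign RNA, was at 138, 138 and 135 FPKM in RD and at 0.606, 0.493 and 0.346 FPKM in Rh30 (-6.54, SE 0.08, adjusted p = 6.13e-09). IFIT3 was at 115, 113 and 114 FPKM in RD and at 1.25, 1.10 and 1.01 FPKM in Rh30, and ISG15, a ubiquitin-like protein gene, was at 271, 281 and 278 FPKM in RD and at 8.58, 7.99 and 7.37 FPKM in Rh30. All of them were expressed in RD, where the labels name no interferon treatment, and in Rh30 they were close to 1 FPKM or, for ISG15, close to 8 FPKM. OAS2 and MX1 were listed at 0 in Rh30, from means of 5.02 and 2.48 FPKM in RD. The promoters of HLA-B, HLA-C, PSMB8, PSMB9, OAS1, STAT2 and IRF1 held no match. A match did not always go with a fall of at least 2-fold. B2M and TAP2 held one and differed by only -0.15 and -0.37, and BST2 held one and was higher in Rh30 (3.17).

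Antigen presentation genes did not all follow. HLA-B, which displays peptides to T cells, was at 80.6, 76.3 and 77.9 FPKM in RD and at 0.250, 0.720 and 0.378 FPKM in Rh30 (-5.79, limma adjusted p = 4.32e-08). HLA-C (85.8 against 1.05 FPKM), the immunoproteasome gene PSMB8 (48.4 against 0.827 FPKM) and the peptide transporter TAP1 (18.2 against 0.823 FPKM) were close to 1 FPKM or under it in Rh30 too. B2M, the light chain of the same complexes, differed by only -0.15 (1991 against 1790 FPKM), and HLA-E, IRF1 and NLRC5, a coactivator of class I genes, were not called (25.8 against 24.6, 29.8 against 29.4 and 5.48 against 4.90 FPKM). STAT2 was lower in Rh30 (55.6 against 25.6 FPKM, -1.09). BST2, an antiviral membrane protein gene, was the member that was higher by more than 2-fold, at 2.19, 1.94 and 1.70 FPKM in RD and at 25.3, 26.4 and 24.4 FPKM in Rh30. HLA class I genes are alike and vary between people, and the IFITM genes are alike, so reads may have been split or lost by the alignment.

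**Figure D5:**
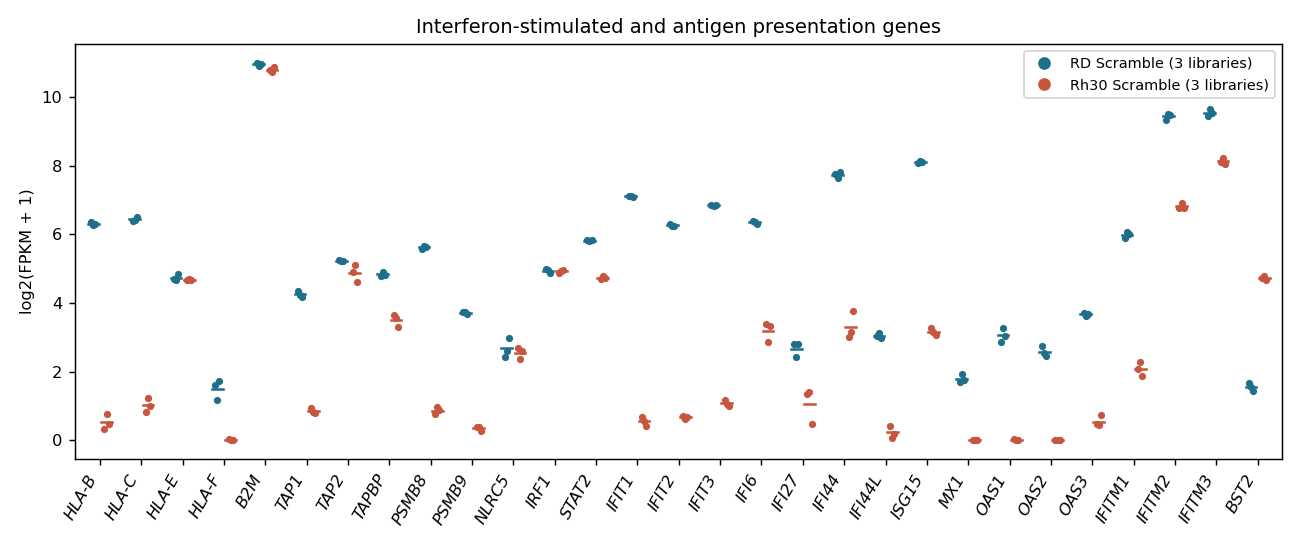
Levels, as log2(FPKM + 1), of listed interferon-stimulated and antigen presentation genes in the 3 RD and 3 Rh30 Scramble libraries, points being libraries and bars means. B2M, HLA-E and IRF1 are nearly level between the lines, most others are higher in RD, and BST2 is higher in Rh30.

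The 8 protein-coding genes with the largest rise and a mean of at least 10 FPKM were PEG3, CAPN6, KRT17, OCIAD2, NTN5, FGF8, ERVW-1 and HHIP, by 8.07 to 6.64. PEG3, a paternally expressed imprinted gene, was at 0.812, 0.529 and 0.333 FPKM in RD and at 413, 400 and 426 FPKM in Rh30. FGF8, an embryonic growth factor, was at 0.567, 0.902 and 0.553 FPKM in RD and at 182, 177 and 161 FPKM in Rh30, and HHIP, a Hedgehog target and inhibitor, was at 0.230, 0.539 and 0.572 FPKM and 144, 138 and 146 FPKM. Each was under 1 FPKM in every RD library. ERVW-1, the retroviral envelope gene known as syncytin, went from 0.213 to 123 FPKM, KRT17, an epithelial keratin, from 0.210 to 163 FPKM, CAPN6 from 0.307 to 207 FPKM, OCIAD2 from 0.191 to 147 FPKM and NTN5 from 0.154 to 134 FPKM.

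The 8 largest falls were PRAME, CD44, NPTX2, CRABP2, SPP1, SELM, HTR2B and NT5E, by -8.49 to -6.98. PRAME, a cancer testis antigen gene, was at 366, 345 and 371 FPKM in RD and at most 0.0260 FPKM in Rh30. CRABP2, a retinoic acid carrier, was at 648, 631 and 673 FPKM in RD and at 1.28, 1.87 and 2.98 FPKM in Rh30, and SPP1 (osteopontin) was at 351, 355 and 368 FPKM and 1.27, 0.558 and 0.402 FPKM. NPTX2 was at 223 FPKM on average in RD and listed at 0 in all 3 Rh30 libraries. SELM was less steady, at 0.642, 5.63 and 2.00 FPKM in Rh30 against 514 FPKM in RD. The serotonin receptor gene HTR2B went from 130 to 0.0317 FPKM and NT5E (CD73) from 141 to 0.122 FPKM.

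Counting protein-coding genes that were under 0.1 FPKM in all 3 libraries of a line and at least 10 FPKM in all 3 of the other, 17 were restricted to Rh30 and 54 to RD. The highest of the Rh30 set were BMP5 (31.4 FPKM), DMRTA2 (25.7 FPKM), PPP1R16B (24.3 FPKM), AFP (23.4 FPKM), the fetal serum protein of liver, and EDIL3 (22.1 FPKM). The highest of the RD set were PRAME, NPTX2, HTR2B and the imprinted genes NDN and NNAT, at 88.7 and 74.6 FPKM. NDN was listed at 0 in all 3 Rh30 libraries.

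KDM3A (ENSG00000115548), the gene the study depleted, was at 35.8, 33.9 and 30.9 FPKM in RD Scramble and at 27.8, 29.2 and 32.0 FPKM in Rh30 Scramble. The libraries overlapped, and the difference was not called (-0.17, SE 0.08, adjusted p = 0.0784). Of its studied downstream genes, ETS1, the transcription factor, was at 77.5, 73.8 and 73.0 FPKM in RD and at 120, 116 and 119 FPKM in Rh30 (0.66, SE 0.04, adjusted p = 5.38e-06). MCAM, the cell surface adhesion molecule, was at 74.3, 72.9 and 72.5 FPKM in RD and at 100, 105 and 99.3 FPKM in Rh30 (0.46, SE 0.04, adjusted p = 2.9e-05). Both were higher in every Rh30 library, by less than 2-fold, and for MCAM the order was the reverse in the KDM3A-depleted libraries (-0.27, adjusted p = 0.00475).

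FYN, PLAU, AXL and LOXL2, which the study names beside them, had the opposite order. FYN, a Src-family kinase, was at 217, 220 and 221 FPKM in RD and at 102, 102 and 112 FPKM in Rh30 (-1.05, adjusted p = 1.08e-06). PLAU, the urokinase protease, fell furthest, from 699, 730 and 728 FPKM to 90.7, 96.1 and 93.0 FPKM, 7.71-fold. AXL was at 115, 111 and 122 FPKM in RD and at 80.6, 78.4 and 78.4 FPKM in Rh30 (-0.54, adjusted p = 3.61e-05), and LOXL2 at 218, 235 and 230 FPKM and 135, 143 and 129 FPKM (-0.74, adjusted p = 9.3e-06). All 4 were lower in every Rh30 library. RPL19, the internal control of the study's qRT-PCR, was 1.87-fold higher in Rh30 (1180 against 2208 FPKM, limma adjusted p = 1.48e-06). This difference lies between the lines and does not bear on comparisons of knockdown with Scramble within a line.

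Histone demethylases and ETS factors ran in both directions. Of 20 demethylases tested, 7 were called higher and 6 lower, and only KDM5B, which acts on H3K4, passed the 2-fold rule (66.9, 54.2 and 60.7 FPKM in RD and 29.3, 26.4 and 25.5 FPKM in Rh30). KDM3B, the closest relative of KDM3A, was higher by 0.60. Of 18 ETS factors tested, 8 were called higher and 7 lower. ETS2 (6.81 against 18.2 FPKM) and SPIB (0.625 against 4.46 FPKM) were higher beside ETS1, and ETV1 (140 against 47.6 FPKM) and FLI1 (11.3 against 3.46 FPKM) were lower, each by more than 2-fold.

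The Hippo effectors showed a divided picture. Of 17 tested genes of the YAP and TEAD list, 4 were called higher and 7 lower. The coactivators YAP1 (90.7 against 37.9 FPKM) and WWTR1 (188 against 70.4 FPKM) and the target CTGF (208, 208 and 204 against 23.0, 21.5 and 22.8 FPKM) were lower in Rh30. AJUBA (28.7 against 92.6 FPKM) was higher, and TEAD2, TEAD3 and TEAD4 were not called. Of the vestigial-like partners of TEAD, VGLL2 was 6.69-fold lower (135 against 20.2 FPKM) and VGLL3 3.77-fold higher (17.1 against 64.5 FPKM).

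Neural genes ran in both directions. Of 28 listed, 16 were tested, 11 were called lower (7 by at least 2-fold) and 5 higher (3 by at least 2-fold). The neurofilament genes NEFM (18.7, 17.2 and 16.5 FPKM) and NEFH (16.3, 15.8 and 17.2 FPKM) were expressed in RD and stayed under 0.2 FPKM in every Rh30 library. DCX and OLIG2, given above with the fusion markers, went the other way. Others differed by less than 2-fold, among them SOX11 (26.0 against 21.4 FPKM), MAP2 (31.6 against 21.8 FPKM) and SOX4 (11.2 against 16.5 FPKM).

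Amino acid supply genes were split, with 13 of 28 called higher and 15 lower. The largest rises were those of SHMT2 and SHMT1 (15.6 against 94.3 FPKM), which lie in the raised chromosome 12 and chromosome 17 stretches. CHAC1, a glutathione-degrading enzyme induced by amino acid stress (8.62 against 1.53 FPKM), and ALDH1L2, a mitochondrial folate enzyme (2.08 against 0.224 FPKM), fell most. Proliferation genes leaned to Rh30: of 42 tested S phase genes, 35 were called higher and 3 lower (median 0.64), and of 54 G2/M genes, 41 and 8 (median 0.54).

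Markers of other cell types were mostly near 0. Of 5 blood markers, CD68 passed the filter (15.4 FPKM in RD, 0.0484 FPKM in Rh30), and PTPRC and CD3E stayed under 0.1 FPKM. Of 5 endothelial markers, CLDN5 passed (4.18 against 0.334 FPKM), and PECAM1, CDH5 and VWF were under 1 FPKM. Of 7 epithelial markers, KRT18 was higher in RD (43.7 against 4.66 FPKM), EPCAM higher in Rh30 (0.577 against 4.63 FPKM) and KRT8 not called (2.92 against 2.52 FPKM), with KRT5, KRT14 and KRT19 under 1 FPKM.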

How the data were processed

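RNA of RD and Rh30 cells stably carrying Scrambled shRNA (3 libraries each) was analysed; the KDM3A-sh2 libraries served as a second set and in fits of all 12 libraries, as an alternative and for the interaction term. According to the submitters' processing notes and the study's methods, the authors aligned reads with GSNAP to GRCh38 and computed FPKM with Cufflinks. The annotation release and strand setting are not given in the sources used here. The deposited FPKM values are normalised to length and library, so read depth is unknown and counting intervals cannot be given.

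The value 999999999 was read as missing, which left out 12 genes. Of 66095 rows, 1 was kept per gene identifier (65975), that with the highest mean. Genes that averaged 1 FPKM or more over the 6 libraries were fitted as log2(FPKM + 1) with limma 3.58.1 (R 4.3.3; lmFit, eBayes with trend), with Benjamini-Hochberg adjustment over all 18357 and a threshold of 0.05. The script was tested on simulated data. Gene types came from GENCODE 29, which holds 86.3% of the identifiers. Text names a fixed set of genes, the 8 largest differences per direction (protein-coding, mean of at least 10 FPKM, no overlap), up to 2 called 2-fold members per list and direction, the 5 highest line-restricted genes, and up to 3 genes of the 3 highest and 3 lowest 5 Mb windows; other genes were chosen after their values were seen. The members and the 27 lists were chosen with earlier results of these data known. Alternatives covered the pseudocount, filter, scaling, test, libraries and the replicate block. Replicate numbers did not pair the samples. Some members of the lists are counted but not reported by name here, and they were left out of the plot of interferon genes.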

Additional observations from a re-analysis of the deposited data

Results flagged for a closer look

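The difference between the lines was tested for change between the Scramble and the KDM3A-sh2 libraries. An interaction term in limma was used, with the 12 libraries fitted together. Of 124 genes named by rule, 13 changed by at least 1 (log2(FPKM + 1) scale) at an adjusted p under 0.05. Genes that the text names for other reasons were not counted here. Some of them passed the same limits, among them CCND1 (-1.21), MSTN (-1.19), CHRND (-1.20) and PITX3 (1.11). Values are the Rh30 minus RD difference in KDM3A-sh2 libraries minus that in Scramble libraries. The difference grew in favour of Rh30 for PAX3 (by 1.37, from 1.72 to 3.10, adjusted p = 0.000142) and MGP (by 1.64, from 3.87 to 5.51). The rises of MEOX1 (change -1.0), AFP (-1.08), EDIL3 (-1.02) and ABI3BP (-1.08) were smaller with KDM3A-sh2, with ABI3BP at an adjusted p of 0.0265. The falls of CTGF (-1.57), NEFM (-1.31), CHAC1 (-1.92), ALDH1L2 (-1.67) and AXL (-1.53, from -0.54 to -2.07) were larger. The falls of NEFH (1.42) and PRAME (1.58) were smaller. All 13 kept the direction they had in the Scramble libraries, and what the changes come from was not tested.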

How the results depend on the processing

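Counts of calls stayed within 1.5 times of 6418 higher and 7265 lower genes under every alternative run, and rescaling moved the share of calls that were higher from 46.9% to 41.0% (TPM scale: 5628 higher, 8107 lower) or to 51.5% (each library centred on its median: 7042 and 6643). Testing protein-coding genes alone cut the genes higher by at least 2-fold to 1421, and asking for at least 10 FPKM in a library cut those lower by at least 2-fold to 1827, in both cases with fewer genes tested. Without the filter on low values 7553 genes were called higher and 8985 lower of 34347. With each library left out in turn, 6039 to 6214 genes were called higher and 6883 to 7025 lower, and 2276 to 2334 and 2834 to 2880 by at least 2-fold.

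With the replicate number as a block, 6374 genes were called higher and 7170 lower. The numbers do not pair the libraries: correlations of same-numbered deviations were 0.048, 0.004 and -0.037. Of 124 genes named by rule, 121 kept direction and side of the threshold in each of the 16 alternatives in which they were tested. The KDM3A-sh2 libraries carry the depletion itself, so for KDM3A and its reported downstream gene MCAM they are no check of the processing. There KDM3A differed by 0.20 and was not called (limma adjusted p = 0.0706). MCAM was at -0.27 (adjusted p = 0.00475), the reverse of the Scramble libraries. KDM3A passed the threshold on the TPM scale (-0.28, adjusted p = 0.0159), without Rh30 replicate 3 (-0.23, adjusted p = 0.0381) and without RD replicate 3 (-0.23, adjusted p = 0.0383), and its adjusted p ran from 0.0159 to 0.283 over all alternatives. MEF2B lost its call when each gene was tested on its own without logs (adjusted p = 0.0541). The median of amino acid supply genes ran from -0.63 to 0.17, that of YAP and TEAD genes from -0.30 to 0.02, that of histone demethylases from -0.04 to 0.14 and that of ETS factors from -0.06 to 0.23, so no direction is given for these lists. Values listed at 0 carry no known depth, so whether such a gene is absent cannot be told.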

Other observations

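Cytosolic ribosomal protein genes, grouped after the data were seen, were higher in Rh30 almost throughout: of 78 tested, 75 were called higher and 1 lower, with a median difference of 1.05. RPL19, given above, and RPL21 of the chromosome 13 window belong to them. Their pseudogenes moved with them, 297 of 445 being called higher and 7 lower (median 0.91). Reads of a ribosomal protein gene and its pseudogenes can be exchanged by the alignment, so these values are uncertain gene by gene. Over gene types, processed pseudogenes had a median of 0.23 (1251 called higher and 613 lower of 3185), against -0.13 for 12744 protein-coding genes (4355 and 5923). What part these reads have in the balance of calls was not tested.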
